A study of Mus musculus with 9 samples.

Results

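The complement system is described here through 34 genes that encode its initiating proteins, proteases, terminal components, regulators and receptors. They were chosen by symbol from the 56719 genes listed for each library. All 34 were found, and all 34 were among the 17704 genes that passed the filter on low counts. The values come from RNA-seq of whole liver of C57BL/6J mice, in 9 libraries that form 3 groups of 3. FMT-Con A mice were gavaged for 4 weeks with faeces of mice in which an autoimmune hepatitis (AIH) model had been induced with concanavalin A (Con A, a T cell-activating lectin from jack beans) at 10 mg/kg, and received 10 mg/kg Con A into the tail vein on the day the liver was taken. Con A mice received PBS during those 4 weeks and the same Con A injection, and WT mice received PBS at both steps. No group received faeces without Con A, or faeces of untreated mice, and neither the hours between injection and collection nor the age of the mice is stated. The sex tag of the labels reads female while the growth protocol says male. The Y-linked gene Ddx3y was at 99.9 to 135 CPM in FMT-Con A, 125 to 140 CPM in Con A and 141 to 259 CPM in WT libraries, which goes against the tag.

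Complement is a cascade of plasma proteases and their substrates, most of which hepatocytes secrete. The classical pathway starts with C1q bound to antibody, the lectin pathway with mannose-binding lectins and ficolins bound to sugars, and the alternative pathway with factor B and factor D on a surface that already carries C3b. All of them cleave C3 and then C5, whose fragments attract myeloid cells, and the terminal components assemble into a pore in the target membrane. Regulators in plasma and on cells stop the cascade at each step, and several complement genes are known acute-phase genes of the liver.

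Levels are given as CPM, the counts scaled by library size and edgeR's TMM factor, and, where genes are set beside each other, as CPM per kb of exon. A gene is called higher or lower where edgeR's quasi-likelihood F test over all 9 libraries gave a Benjamini-Hochberg adjusted p (edgeR adjusted p below) under 0.05 over the 17704 genes. The 3 comparisons share libraries, so their values are set side by side and not counted as separate support. Total counts were 21580482 to 29466806 in FMT-Con A, 21772376 to 25890947 in Con A and 20513051 to 22770276 in WT libraries. Mitochondrial transcripts took 7.44 to 11.7% of the counts in FMT-Con A, 5.03 to 9.96% in Con A and 19.6 to 22.4% in WT, so they moved with Con A treatment. With these and the skeletal muscle genes left out of the scaling, the members called were 17 higher and 5 lower in Con A against WT and 10 higher and 9 lower in FMT-Con A against WT. FMT-Con A 1 and FMT-Con A 3 stood apart from the other 7, with 24 skeletal muscle genes summing to 20250 and 19990 CPM in them. The sum was 2079 CPM in FMT-Con A 2, 14.5, 25.3 and 2377 CPM in Con A, and 53.2 to 66.9 CPM in WT. FMT-Con A 2 and Con A 3 thus also lay above the WT and the other Con A libraries. The sum of 10 hepatocyte genes was 35141 to 42193 CPM in FMT-Con A, 59195 to 68565 CPM in Con A and 61787 to 73157 CPM in WT. Alb alone was 17823 to 20196 CPM in FMT-Con A, 33818 to 38043 CPM in Con A and 33277 to 44968 CPM in WT. Of the 10, 0 were called higher and 3 lower in FMT-Con A against Con A. Against WT, 6 were higher and 2 lower in Con A, and 2 higher and 3 lower in FMT-Con A. These RNA counts come from whole liver, so fewer cells of a type and less RNA per cell cannot be told apart.

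The summed RNA of the 34 genes was higher in both groups given Con A than in WT, with C3 and Vtn making up most of the difference in FMT-Con A. The 34 genes summed to 22181, 27056 and 21133 CPM in FMT-Con A, 26773, 23214 and 34148 CPM in Con A, and 11108, 11796 and 11663 CPM in WT. Every FMT-Con A and Con A library was above every WT library. Without C3 the sums were 11372, 15443 and 11009 CPM in FMT-Con A, 15388, 13911 and 15380 CPM in Con A, and 9104, 9855 and 9426 CPM in WT. Without C3 and Vtn they were 7820, 10449 and 7640 CPM in FMT-Con A, 11716, 10672 and 12612 CPM in Con A, and 7476, 8136 and 7532 CPM in WT, and FMT-Con A overlapped WT. Per kb of exon, C3 came first among the 34 genes in FMT-Con A (2109 CPM per kb) and in Con A (2557 CPM per kb), followed in each by Vtn (1957 and 1589 CPM per kb). In WT the order was reversed, with Vtn at 861 and C3 at 401 CPM per kb. Itgax was last in FMT-Con A (0.343 CPM per kb) and Con A (0.525 CPM per kb), and Itgam was last in WT (0.132 CPM per kb).

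**Figure D1:**
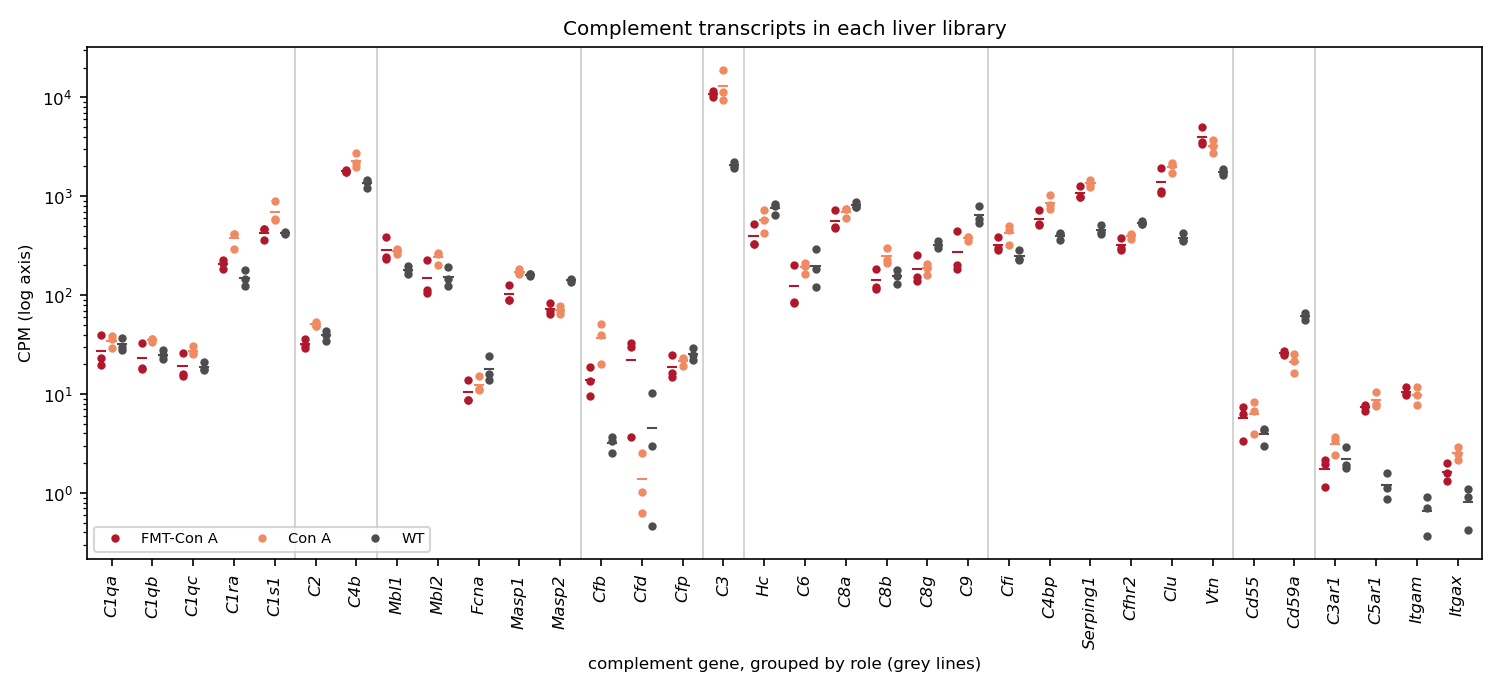
CPM of each of the 34 complement genes in each library, on a log axis, with the genes grouped by role, 1 point per library in FMT-Con A, Con A and WT, and a dash at each group's mean. C3 sits between 9303 and 18768 CPM in all libraries given Con A, against 1941 to 2237 CPM in WT, while Itgam lies below 1 CPM in WT only.

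Between Con A and WT, 17 of the 34 genes rose and 4 fell, and 13 did not pass the threshold. The 17 made up 50% of the members and the 4 made up 11.8%, beside 32.5% of all genes tested called higher and 30.9% called lower; in either direction it was 61.8% of members and 63.4% of all genes. The share that changed was therefore near that of all genes, and the median log2 fold change was 0.58 for the members and 0.01 for all genes. With library totals in place of TMM factors, which moved the median of all genes by -0.19, the split was 14 higher and 8 lower. Between FMT-Con A and WT, 10 genes rose, 9 fell and 15 did not pass, with a median of -0.02 beside 0.03 for all genes. Those were 29.4% and 26.5% of the members, beside 31.2% of all genes called higher, 27.9% called lower and 59% called in either direction. The 9 became 14 without FMT-Con A 2, and 2 (Masp2 and Cd59a) without FMT-Con A 1 and FMT-Con A 3. That last fit has 1 FMT-Con A library, takes the spread from the other groups and passes fewer genes. Between FMT-Con A and Con A, 1 gene rose (Cfd) and 6 fell (C1ra, C1s1, C2, Masp1, Cfb and C8b), with a median of -0.38 beside -0.01 for all genes. Those were 2.94% and 17.6% of the members, beside 6.26% of all genes called higher, 10.6% called lower and 16.8% called in either direction. With library totals, which moved the median of all genes by 0.19, the split was 2 higher and 5 lower.

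**Figure D2:**
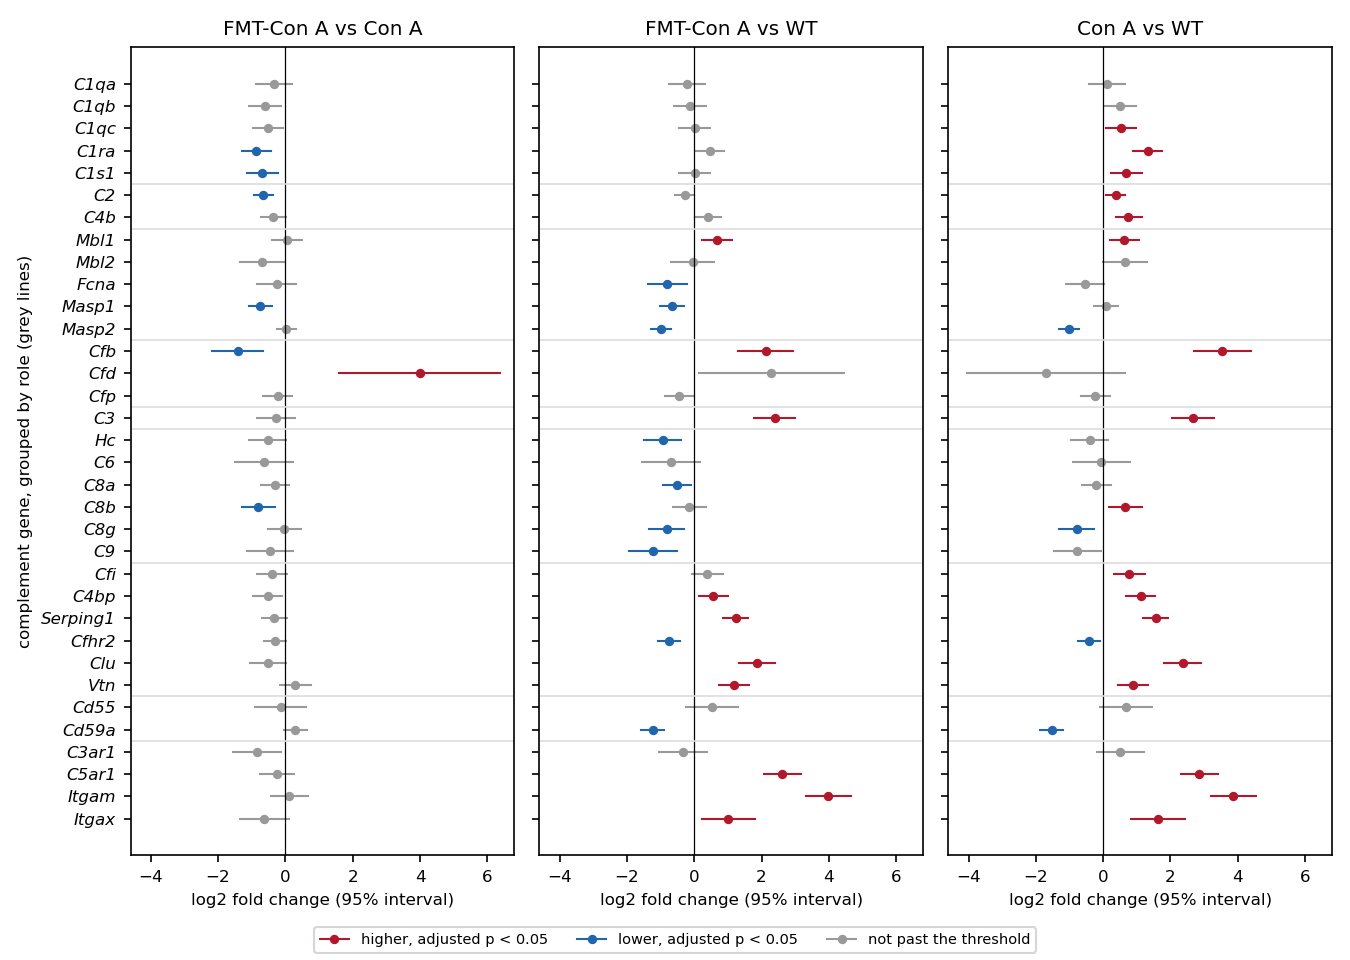
Log2 fold change of each of the 34 complement genes with its 95% interval in FMT-Con A vs Con A, FMT-Con A vs WT and Con A vs WT, coloured by call, with grey lines between the roles. The largest values against WT are those of Itgam, at 3.98 in FMT-Con A and 3.86 in Con A, and between FMT-Con A and Con A most intervals include 0.

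Promoter sequences were read for 26 of the 34 genes, as the 250 bases before the start, from RefSeq on GRCm38.p6. Of these 26, Itgam, C5ar1 and C3 had the lowest p among members that rose in Con A against WT. Cd59a and Masp2 had the lowest p among those that fell. Only C3, Masp2 and Cd59a are printed below, C3 as the member with the most counts in both groups given Con A. Itgam and C5ar1 held neither of the patterns described next. Capitals mark matches, on either strand, to 2 letter patterns of acute-phase factors, TTCNNNGAA for STAT and TTGCNNAA for C/EBP. The sequences run 5′ to 3′ along the gene, C3 at chr17:57228137-57228386 on the minus strand, Masp2 at chr4:148602294-148602543 and Cd59a at chr2:104095551-104095800, both on the plus strand.
C3: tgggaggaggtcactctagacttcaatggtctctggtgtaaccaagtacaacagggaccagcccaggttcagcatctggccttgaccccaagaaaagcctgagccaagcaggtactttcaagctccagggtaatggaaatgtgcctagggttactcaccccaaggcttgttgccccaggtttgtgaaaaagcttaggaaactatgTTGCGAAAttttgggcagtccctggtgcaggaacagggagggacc
Masp2: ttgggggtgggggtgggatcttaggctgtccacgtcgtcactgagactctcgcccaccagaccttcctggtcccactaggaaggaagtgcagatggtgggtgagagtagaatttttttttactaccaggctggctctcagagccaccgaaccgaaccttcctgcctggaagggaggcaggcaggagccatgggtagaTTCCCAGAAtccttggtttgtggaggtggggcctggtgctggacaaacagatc
Cd59a: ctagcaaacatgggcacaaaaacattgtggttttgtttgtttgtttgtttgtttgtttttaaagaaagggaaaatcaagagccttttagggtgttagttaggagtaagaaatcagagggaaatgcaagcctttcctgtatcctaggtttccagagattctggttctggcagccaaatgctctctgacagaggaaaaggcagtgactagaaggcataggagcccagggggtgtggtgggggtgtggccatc
C3 held a C/EBP pattern 45 to 38 bases before the start, Masp2 a STAT pattern 53 to 45 bases before it, and Cd59a neither; the matches do not overlap. The C/EBP pattern was in 3 of the 26 member promoters (C1s1, C3 and C9; 11.5%) and in 9.55% of all 27025 promoters of this length, and the STAT pattern in 2 (C8a and Masp2; 7.69%) and in 7.18%. Both shares among members were near those of all promoters.

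C3, the component on which all pathways meet (ENSMUSG00000024164, GRCm38 chromosome 17, 57203970 to 57228136, minus strand), was 10809, 11612 and 10124 CPM in FMT-Con A, 11386, 9303 and 18768 CPM in Con A, and 2004, 1941 and 2237 CPM in WT. All libraries given Con A lay above all WT libraries, and Con A 3 was the highest. The log2 fold change was 2.40 in FMT-Con A against WT (SE 0.27, edgeR adjusted p 5.82e-05) and 2.67 in Con A against WT (SE 0.27, edgeR adjusted p 2.21e-05), a 6.38-fold rise. Between FMT-Con A and Con A the groups overlapped and the difference was -0.28 (95% interval -0.85 to 0.30, edgeR adjusted p 0.474). Without Con A 3 that difference was 0.07.

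Of the 5 genes of classical pathway initiation, 3 rose in Con A against WT (C1qc, C1ra, C1s1), 2 fell in FMT-Con A against Con A (C1ra, C1s1), and none passed in FMT-Con A against WT. Over all genes, 32.5% were called higher in Con A against WT and 10.6% lower in FMT-Con A against Con A. In FMT-Con A against WT, 59% of all genes were called in either direction. C1ra, a protease of the C1 complex, was 213, 224 and 184 CPM in FMT-Con A, 415, 295 and 420 CPM in Con A, and 125, 145 and 182 CPM in WT. Its Con A libraries lay above all others. The log2 fold change was -0.86 in FMT-Con A against Con A (SE 0.19, edgeR adjusted p 0.018) and 1.32 in Con A against WT (SE 0.19, edgeR adjusted p 0.000227). The first was lost without Con A 1, FMT-Con A 1 or FMT-Con A 3 (edgeR adjusted p 0.0702 to 0.0792). In FMT-Con A against WT, C1ra was 0.46 (edgeR adjusted p 0.06), and those groups did not overlap. That value passed as higher with library totals (edgeR adjusted p 0.0471), no count filter (0.0499) and only those groups in the fit (0.0349). It also passed in DESeq2 (adjusted p 0.0499) and without WT 3 (edgeR adjusted p 0.0317) or Con A 2 (0.0326). C1s1, the second protease of that complex, was 463, 358 and 466 CPM in FMT-Con A, 571, 906 and 583 CPM in Con A, and 422, 439 and 414 CPM in WT. Again the 3 Con A libraries were highest, with Con A 2 above the rest. It differed by -0.68 in FMT-Con A against Con A (edgeR adjusted p 0.0472) and by 0.69 in Con A against WT (edgeR adjusted p 0.0129). Leaving out any library but Con A 3 ended the first of these calls (edgeR adjusted p 0.0694 to 0.114), and library totals in place of TMM ended both (edgeR adjusted p 0.143 and 0.0695). Reads of C1ra and C1s1 may be shared with the closely related C1rb and C1s2; summed, C1ra and C1rb were 216 to 265 CPM in FMT-Con A, 355 to 462 CPM in Con A and 167 to 220 CPM in WT. The summed C1s1 and C1s2 were 366 to 481 CPM in FMT-Con A, 597 to 930 CPM in Con A and 426 to 453 CPM in WT.

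The genes of C1q, the recognition protein of the classical pathway that tissue macrophages make, were read together as C1qa, C1qb and C1qc. Their sum was 54.0, 99.1 and 56.1 CPM in FMT-Con A, 100, 101 and 90.6 CPM in Con A, and 68.6, 72.5 and 85.9 CPM in WT. FMT-Con A 2 stood with the Con A libraries and the other FMT-Con A libraries below WT. C1qc rose by 0.53 in Con A against WT (edgeR adjusted p 0.0424), C1qb was 0.50 (edgeR adjusted p 0.067) and C1qa 0.12 (edgeR adjusted p 0.671; -0.07 with library totals in place of TMM). The C1qc call was lost without any 1 of the 6 libraries of that comparison (edgeR adjusted p 0.0535 to 0.141). In FMT-Con A against Con A, C1qa, C1qb and C1qc were -0.33, -0.61 and -0.51 and did not pass; without FMT-Con A 2 all 3 passed as lower (edgeR adjusted p 0.0189, 0.00205 and 0.00529). The sum of 10 Kupffer cell genes, the macrophages of the liver, was 83.4, 128 and 85.0 CPM in FMT-Con A, 204, 173 and 219 CPM in Con A, and 290, 285 and 378 CPM in WT. Its part in the C1q values was not tested.

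C2 and C4b encode the 2 chains that form the C3 convertase of the classical and lectin pathways. C2 was 31.3, 36.0 and 29.1 CPM in FMT-Con A, 49.2, 53.3 and 49.4 CPM in Con A, and 34.4, 43.8 and 39.2 CPM in WT. The Con A libraries were above all others, and C2 fell by 0.66 on the log2 scale in FMT-Con A against Con A (SE 0.12, edgeR adjusted p 0.0106) and rose by 0.37 in Con A against WT (SE 0.12, edgeR adjusted p 0.0239). The first was lost without FMT-Con A 1 or FMT-Con A 3 (edgeR adjusted p 0.056 to 0.0577) and the second without WT 1, WT 3 or Con A 2 (edgeR adjusted p 0.0601 to 0.135) and with library totals in place of TMM, where it was 0.18 (edgeR adjusted p 0.191). C4b was 1845, 1775 and 1744 CPM in FMT-Con A, 2156, 1984 and 2722 CPM in Con A, and 1408, 1451 and 1208 CPM in WT. The 3 groups did not overlap, and Con A against WT passed (0.75, SE 0.17, edgeR adjusted p 0.00327), while FMT-Con A against Con A (-0.36, edgeR adjusted p 0.169) and against WT (0.40, edgeR adjusted p 0.0661) did not. Summed with the near-identical C4a, to which reads may be misassigned, the values were 2120 to 2283 CPM in FMT-Con A, 2527 to 3205 CPM in Con A and 1588 to 2482 CPM in WT, and FMT-Con A then overlapped WT.

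Members of the lectin pathway changed in different directions. Masp2, the protease that cleaves C4 and C2 (ENSMUSG00000028979, chromosome 4, 148602554 to 148615499, plus strand), was 68.5, 82.4 and 64.2 CPM in FMT-Con A, 76.9, 64.0 and 69.8 CPM in Con A, and 137, 146 and 141 CPM in WT. Both groups given Con A lay below WT and overlapped each other, at -0.98 in FMT-Con A against WT (SE 0.13, edgeR adjusted p 0.000182) and -1.01 in Con A against WT (SE 0.13, edgeR adjusted p 0.000112), a 2.01-fold fall. In the annotation 54.9% of the Masp2 exon bases lie opposite exons of Tardbp, and the counting strand is not stated, so reads of these genes cannot be told apart there. Unscaled, Tardbp had 4358, 2758 and 3666 counts in FMT-Con A, 1838, 2538 and 2237 in Con A, and 4246, 4155 and 4161 in WT. Its counts were thus also lower in Con A than in WT. Total counts were 21580482 to 29466806 in FMT-Con A and 20513051 to 22770276 in WT, so unscaled Tardbp counts do not compare these groups. The part of Tardbp in the Masp2 values was not tested for either group given Con A. Masp1, a protease that activates Masp2, was 90.3, 128 and 88.8 CPM in FMT-Con A, 182, 167 and 162 CPM in Con A, and 155, 166 and 164 CPM in WT. Here FMT-Con A alone was low, by 0.66 against WT (edgeR adjusted p 0.00506) and by 0.74 against Con A (edgeR adjusted p 0.0159), with 0.08 in Con A against WT (-0.12 with library totals in place of TMM). The call against Con A was lost without Con A 1, FMT-Con A 1 or FMT-Con A 3 (edgeR adjusted p 0.0701 to 0.0767).

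The sugar-binding proteins of that pathway were Mbl1, Mbl2 and Fcna. Mbl1 was 246, 389 and 233 CPM in FMT-Con A, 281, 295 and 262 CPM in Con A, and 165, 196 and 179 CPM in WT, and both groups given Con A were above WT. It rose by 0.68 in FMT-Con A against WT (edgeR adjusted p 0.0138) and by 0.63 in Con A against WT (edgeR adjusted p 0.0178). Without WT 1 the edgeR adjusted p was 0.0592 in FMT-Con A against WT and 0.0832 in Con A against WT, and the second was 0.057 without WT 3. Mbl2 was 113, 228 and 106 CPM in FMT-Con A, 258, 265 and 204 CPM in Con A, and 144, 125 and 193 CPM in WT, and passed in no comparison (edgeR adjusted p 0.123 in FMT-Con A against Con A, 0.893 in FMT-Con A against WT and 0.0745 in Con A against WT). Without FMT-Con A 2, Mbl2 passed as lower in FMT-Con A against Con A (-1.13, edgeR adjusted p 0.0067) and as higher in Con A against WT (edgeR adjusted p 0.0115). The value in Con A against WT also passed with no count filter (edgeR adjusted p 0.0249), with only those groups in the fit (0.0158) and in DESeq2 (adjusted p 0.0492). Fcna, a ficolin, fell by 0.80 in FMT-Con A against WT (edgeR adjusted p 0.0219), with 8.65 to 13.9 CPM in FMT-Con A, 11.03 to 15.1 CPM in Con A and 13.8 to 24.3 CPM in WT. The FMT-Con A and WT ranges of Fcna overlapped, and the call was lost without WT 3, FMT-Con A 1 or FMT-Con A 3 (edgeR adjusted p 0.0829 to 0.108).

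Factor B, the protease subunit of the alternative pathway convertase, was the member of that pathway that rose against WT. Cfb (ENSMUSG00000090231, chromosome 17, 34856374 to 34862518, minus strand) was 13.4, 9.54 and 18.8 CPM in FMT-Con A, 39.8, 19.9 and 51.6 CPM in Con A, and 2.52, 3.37 and 3.68 CPM in WT. The 3 groups did not overlap. Con A was 11.6-fold above WT (log2 3.54, SE 0.38, edgeR adjusted p 2.96e-05), and FMT-Con A was 2.12 above WT on the log2 scale (SE 0.37, edgeR adjusted p 0.0008) and fell by 1.41 against Con A (SE 0.34, edgeR adjusted p 0.0235). The FMT-Con A against Con A call was lost without Con A 1, Con A 3 or FMT-Con A 1 (edgeR adjusted p 0.0577 to 0.0911). In the annotation, Gm20547 shares 79.5% of the Cfb exon bases and 42.8% of those of C2 on the same strand, and it is listed at 0 counts in all 9 libraries. Reads in shared exons can be left uncounted as ambiguous, and the counting settings are not stated.

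Cfd, the protease that cleaves factor B and a product of adipocytes, was 32.8, 3.70 and 30.3 CPM in FMT-Con A, 0.628, 2.52 and 1.04 CPM in Con A, and 2.98, 10.3 and 0.460 CPM in WT. FMT-Con A 1 and FMT-Con A 3 were the high libraries, and FMT-Con A 2 was within the WT range. The log2 fold change was 3.99 in FMT-Con A against Con A (SE 1.07, 95% interval 1.60 to 6.39, edgeR adjusted p 0.0339) and 1.41 when FMT-Con A 1 and FMT-Con A 3 were left out, which leaves 1 library in that group and takes the spread from the other groups. It was also lost without any 1 of WT 1, Con A 1, Con A 3, FMT-Con A 1 and FMT-Con A 3 (edgeR adjusted p 0.0542 to 0.12). FMT-Con A 1 and FMT-Con A 3 were the libraries highest in skeletal muscle genes. The adipocyte gene Adipoq was 11.7, 1.66 and 10.7 CPM in FMT-Con A, 0.105, 1.75 and 0.497 CPM in Con A, and 1.42, 4.54 and 0 CPM in WT. The sum of 7 adipocyte genes was 443, 270 and 436 CPM in FMT-Con A, 310, 208 and 248 CPM in Con A, and 67.0, 79.2 and 30.5 CPM in WT. Plin4 was the largest of them in libraries given Con A, at 287, 186 and 284 CPM in FMT-Con A and 211, 121 and 180.5 CPM in Con A. In FMT-Con A against Con A, 0 of the 7 were called in either direction. Against WT, 3 were higher in each group given Con A (Cidec, Plin4 and Fabp4), and Adipoq was not called. The part of either tissue in the Cfd values was not tested. Cfp, properdin, which stabilises the convertase, was 14.9 to 24.7 CPM in FMT-Con A, 19.2 to 23.2 CPM in Con A and 22.3 to 29.5 CPM in WT and passed in no comparison.

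Of the 6 terminal components, 4 fell in FMT-Con A against WT (Hc, C8a, C8g and C9), 1 rose and 1 fell in Con A against WT (C8b and C8g), and 1 fell in FMT-Con A against Con A (C8b). Over all genes, 27.9% were called lower in FMT-Con A against WT and 10.6% in FMT-Con A against Con A. In Con A against WT, 32.5% of all genes were called higher and 30.9% lower. The 4 falls in FMT-Con A against WT were smaller with FMT-Con A 2 as the only library of its group and the spread taken from the other groups: Hc was -0.53, C8a -0.15, C8g -0.32 and C9 -0.54, none of which passed, and C8b was 0.24. C9, which forms most of the pore, was 183, 442 and 199.9 CPM in FMT-Con A, 391, 354 and 386 CPM in Con A, and 596, 795 and 531 CPM in WT. All 6 libraries given Con A were below WT, and FMT-Con A 2 was apart from the other FMT-Con A libraries. The log2 fold change was -1.22 in FMT-Con A against WT (SE 0.32, edgeR adjusted p 0.00789) and -0.77 in Con A against WT (SE 0.31, edgeR adjusted p 0.055). The second lay near the threshold and passed with library totals (-0.96, edgeR adjusted p 0.0128), no count filter (0.0222), a filter of 1 CPM in 3 libraries (0.0446), only those groups in the fit (0.00526) and DESeq2 (adjusted p 0.0289). It also passed with mitochondrial and muscle transcripts left out of the scaling (edgeR adjusted p 0.0493). Leaving out FMT-Con A 1 (0.0426) or FMT-Con A 2 (0.00261) also brought it past the threshold. Hc, which encodes C5, was 333, 527 and 332 CPM in FMT-Con A, 581.5, 424 and 719 CPM in Con A, and 828, 799 and 650 CPM in WT. It fell by 0.93 on the log2 scale in FMT-Con A against WT (SE 0.25, edgeR adjusted p 0.0085), and the Con A libraries overlapped both other groups.

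C8 has 3 chains, and their RNAs differed. C8g was 152, 257 and 139 CPM in FMT-Con A, 208, 190 and 160.0 CPM in Con A, and 297, 319.7 and 349 CPM in WT. It was below WT in every library given Con A, at -0.82 in FMT-Con A (edgeR adjusted p 0.0117; leaving out FMT-Con A 1 made it 0.0519) and at -0.79 in Con A (edgeR adjusted p 0.0123). C8b was 122, 185 and 116 CPM in FMT-Con A, 303, 211 and 226 CPM in Con A, and 131, 179.7 and 158 CPM in WT. Con A was above both other groups, with -0.81 in FMT-Con A against Con A (edgeR adjusted p 0.036) and 0.66 in Con A against WT (edgeR adjusted p 0.0243). The first was lost without any 1 of WT 1, WT 2, WT 3, Con A 1, FMT-Con A 1 and FMT-Con A 3 (edgeR adjusted p 0.0572 to 0.143), and the second without WT 1, WT 3 or Con A 1 (edgeR adjusted p 0.0656 to 0.112). C8a was 482 to 732 CPM in FMT-Con A, 609 to 751 CPM in Con A and 774 to 873 CPM in WT. Its fall in FMT-Con A against WT (-0.51, edgeR adjusted p 0.041) was lost without WT 1, WT 2, WT 3, Con A 1, Con A 3, FMT-Con A 1 or FMT-Con A 3 (edgeR adjusted p 0.0508 to 0.159). C6 ranged widely within groups, from 83.0 to 199.9 CPM in FMT-Con A, 162 to 213 CPM in Con A and 121 to 292 CPM in WT. It passed in no comparison with all libraries. Without FMT-Con A 2 it passed as lower in FMT-Con A against WT (-1.23, edgeR adjusted p 0.008) and against Con A (-1.17, edgeR adjusted p 0.0271).

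All 6 soluble regulators passed in Con A against WT, 5 of them upward, beside 63.4% of all genes called and 32.5% called higher. Clu, a chaperone that keeps the terminal complex out of membranes, was 1133, 1929 and 1082 CPM in FMT-Con A, 2051, 1705 and 2172 CPM in Con A, and 357, 362 and 428 CPM in WT. Both groups given Con A were above WT, at 1.85 in FMT-Con A (SE 0.24, edgeR adjusted p 0.000144) and 2.37 in Con A (SE 0.25, edgeR adjusted p 2.44e-05). Serping1, the inhibitor of C1 and of the lectin proteases, was 983, 1257 and 982 CPM in FMT-Con A, 1326, 1252 and 1463 CPM in Con A, and 419, 439.6 and 512 CPM in WT. It too separated both groups from WT, at 1.23 in FMT-Con A (SE 0.17, edgeR adjusted p 0.000178) and 1.56 in Con A (SE 0.17, edgeR adjusted p 3.04e-05). Vtn, vitronectin, which also binds the terminal complex, was 3552, 4994 and 3369 CPM in FMT-Con A, 3672, 3239 and 2767 CPM in Con A, and 1628, 1719 and 1894 CPM in WT. Its rise was 1.18 in FMT-Con A against WT (SE 0.20, edgeR adjusted p 0.000809) and 0.88 in Con A against WT (SE 0.20, edgeR adjusted p 0.00355).

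The other regulators in plasma act on the convertases. C4bp, which binds C4b, was 516, 733 and 529 CPM in FMT-Con A, 815, 738 and 1019 CPM in Con A, and 362, 414 and 420.4 CPM in WT. The 3 groups did not overlap; it rose by 0.57 in FMT-Con A against WT (edgeR adjusted p 0.0252) and by 1.11 in Con A against WT (edgeR adjusted p 0.000665), and -0.53 in FMT-Con A against Con A did not pass (edgeR adjusted p 0.0788). The FMT-Con A against WT call was lost without WT 1, WT 2, WT 3 or FMT-Con A 2 (edgeR adjusted p 0.0515 to 0.104). Cfi, the protease that cuts C3b and C4b, was 289 to 386 CPM in FMT-Con A, 318 to 499 CPM in Con A and 226 to 288 CPM in WT, and rose in Con A against WT (0.78, SE 0.20, edgeR adjusted p 0.00747). Cfhr2, a factor H-related protein, fell: it was 288, 378 and 299 CPM in FMT-Con A, 410.1, 416 and 373 CPM in Con A, and 527, 528 and 559 CPM in WT. The values were -0.74 in FMT-Con A against WT (SE 0.15, edgeR adjusted p 0.00184) and -0.43 in Con A against WT (SE 0.15, edgeR adjusted p 0.0268). The second was lost without any 1 of WT 1, WT 2, WT 3, Con A 1 and Con A 3 (edgeR adjusted p 0.0533 to 0.083).

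Of the regulators on cell membranes, Cd59a, which blocks the insertion of C9 (ENSMUSG00000032679, chromosome 2, 104095801 to 104115354, plus strand), was 25.2, 27.5 and 24.8 CPM in FMT-Con A, 25.3, 21.6 and 16.5 CPM in Con A, and 56.0, 61.6 and 65.7 CPM in WT. The groups given Con A overlapped each other and lay below every WT library. The log2 fold change was -1.24 in FMT-Con A against WT (SE 0.15, edgeR adjusted p 9.86e-05) and -1.53 in Con A against WT (SE 0.15, edgeR adjusted p 1.98e-05), a 2.90-fold fall. Summed with its paralog Cd59b, the values were 25.6 to 28.8 CPM in FMT-Con A, 17.4 to 26.8 CPM in Con A and 58.4 to 70.0 CPM in WT. Cd55, which speeds the decay of convertases, was 3.32 to 7.36 CPM in FMT-Con A, 3.94 to 8.27 CPM in Con A and 3.00 to 4.44 CPM in WT. With all libraries it passed in no comparison, with edgeR adjusted p of 0.801 in FMT-Con A against Con A, 0.208 in FMT-Con A against WT and 0.113 in Con A against WT. Without Con A 3, Cd55 passed as higher in Con A against WT (0.94, edgeR adjusted p 0.0358). Without FMT-Con A 2 it passed as higher in FMT-Con A against WT (0.80, edgeR adjusted p 0.0449).

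Of 4 receptors that myeloid cells carry, 3 rose in each group given Con A against WT, and Itgam had the largest fold change of the 34 genes in both comparisons. Over all genes, 31.2% were called higher in FMT-Con A against WT and 32.5% in Con A against WT. Itgam, the alpha chain of complement receptor 3 (ENSMUSG00000030786, chromosome 7, 128062640 to 128118491, plus strand), was 9.82, 11.9 and 10.1 CPM in FMT-Con A, 7.75, 11.8 and 9.74 CPM in Con A, and 0.366, 0.702 and 0.919 CPM in WT. It rose by 3.98 in FMT-Con A against WT (SE 0.30, edgeR adjusted p 5.4e-06) and by 3.86 in Con A against WT (SE 0.30, edgeR adjusted p 4.26e-06), a 14.5-fold rise. C5ar1, the receptor of the C5a fragment, was 7.77, 6.79 and 7.48 CPM in FMT-Con A, 7.65, 10.6 and 7.88 CPM in Con A, and 0.87, 1.124 and 1.59 CPM in WT. It rose by 2.61 in FMT-Con A against WT (SE 0.25, edgeR adjusted p 2.06e-05) and by 2.86 in Con A against WT (SE 0.25, edgeR adjusted p 8.35e-06). Both genes separated every library given Con A from every WT library, and neither passed between FMT-Con A and Con A, where the 95% interval was -0.43 to 0.67 for Itgam and -0.74 to 0.25 for C5ar1. An overlapping gene on the same strand, Gm49368, shares 68.7% of the Itgam exon bases and had 0 to 10 counts per library.

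Itgax, the alpha chain of complement receptor 4, was 1.61, 1.99 and 1.34 CPM in FMT-Con A, 2.15, 2.47 and 2.94 CPM in Con A, and 0.916, 0.421 and 1.09 CPM in WT. The 3 groups did not overlap; it rose by 1.01 in FMT-Con A against WT (edgeR adjusted p 0.0318) and by 1.63 in Con A against WT (edgeR adjusted p 0.00255). The first was lost without WT 1, WT 2, FMT-Con A 1 or FMT-Con A 2 (edgeR adjusted p 0.0623 to 0.095). C3ar1, the receptor of the C3a fragment, was 1.14 to 2.15 CPM in FMT-Con A, 2.43 to 3.67 CPM in Con A and 1.78 to 2.93 CPM in WT and passed in no comparison, the nearest being -0.84 in FMT-Con A against Con A (edgeR adjusted p 0.0951).

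Marker genes of the cells that carry these receptors moved as well. The sum of 10 neutrophil genes was 217, 341 and 212 CPM in FMT-Con A, 286, 488 and 318 CPM in Con A, and 14.0, 9.64 and 15 CPM in WT, and all 10 passed as higher in each group given Con A against WT. The sum of 9 monocyte genes was 94.2 to 98.8 CPM in FMT-Con A, 74.7 to 89.7 CPM in Con A and 42.1 to 44.0 CPM in WT, with 5 of 9 higher in each of those comparisons, and 1 lower (Cx3cr1) in FMT-Con A and 2 lower (Cx3cr1 and Ccr2) in Con A. The sum of 8 dendritic cell genes, of which 5 passed the filter, was 6.36 to 7.97 CPM in FMT-Con A, 5.51 to 10.4 CPM in Con A and 16.5 to 20.8 CPM in WT, with 3 of 5 lower and 1 higher (Ccr7) in each of those comparisons. Of 10 Kupffer cell genes, 6 were lower and 1 higher (Marco) in FMT-Con A against WT, and 4 were lower and 3 higher (Marco, Adgre1 and Cd68) in Con A against WT. The 8 genes of sinusoidal endothelium summed to 128 to 179 CPM in FMT-Con A, 135 to 177 CPM in Con A and 113 to 150 CPM in WT. No listed marker gene was at 0 in every library, and the part of these cells in the receptor values was not tested.

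The FMT-Con A libraries were not alike, over all genes as in complement RNA. The median chi-square between 2 libraries, divided by that of sampling alone, was 2.71 for FMT-Con A 1 and FMT-Con A 3. It was 13 and 13.1 for FMT-Con A 2 with each of them, over 13951 to 14509 genes. The counts below were made for members only, so they do not set complement apart from other genes. FMT-Con A 2 was above both other FMT-Con A libraries in 27 of the 34 genes, between them in 1 (C4b) and below both in 6 (C1s1, Cfb, Cfd, Cd55, C3ar1 and C5ar1). Relative to the mean of the Con A libraries, 29 genes were lower in FMT-Con A 1, 21 in FMT-Con A 2 and 29 in FMT-Con A 3, with median log2 ratios of -0.55, -0.09 and -0.56. C9, for example, was 0.23 above the Con A mean in FMT-Con A 2, with -1.04 and -0.91 in FMT-Con A 1 and FMT-Con A 3. The 6 genes that fell in FMT-Con A against Con A were below the Con A mean in all 3 libraries. Their call from these same libraries makes that likely, and members not called, such as C3 and C4b, were below it in all 3 as well. Members called lower in that comparison numbered 0 without FMT-Con A 1, 16 without FMT-Con A 2 and 1 without FMT-Con A 3. They numbered 1 without Con A 1 and 2 where only these groups entered the fit. Skeletal muscle genes, as given above, took up a larger part of the counts in FMT-Con A 1 and FMT-Con A 3. The summed hepatocyte genes, with Alb the largest among them, took a smaller part in all 3 FMT-Con A libraries than in any Con A library. The part of either list in these differences was not tested.

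**Figure D3:**
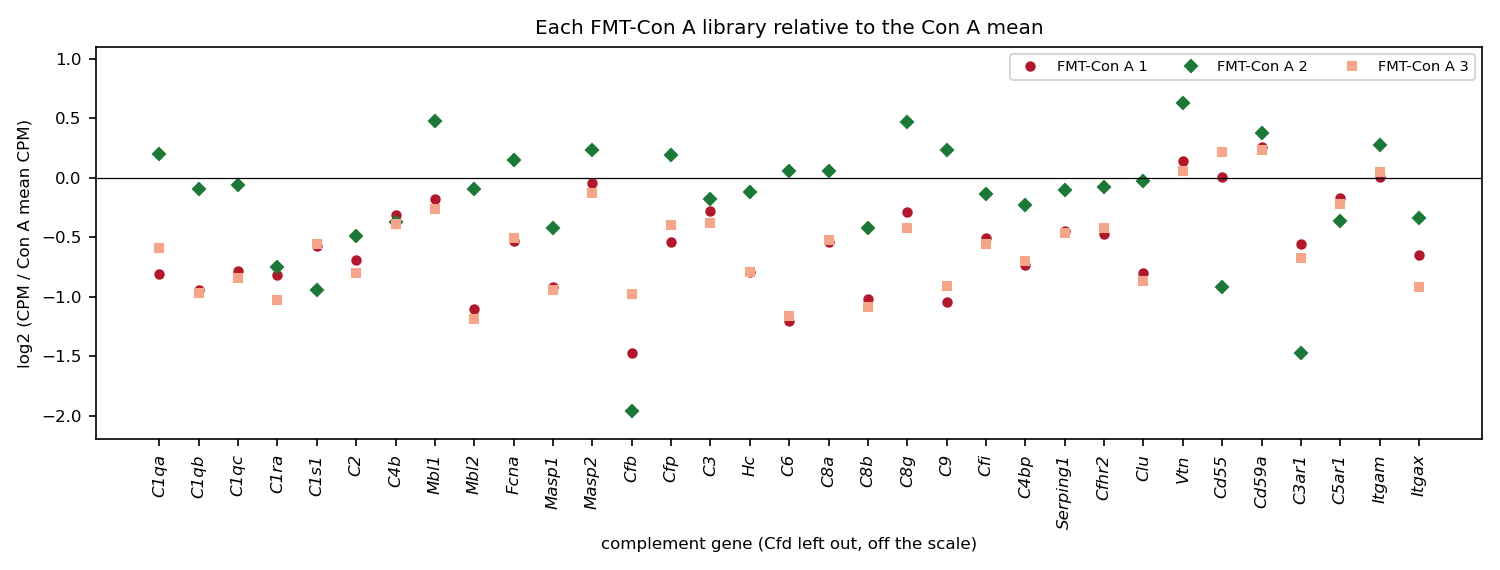
Log2 ratio of the CPM in each FMT-Con A library to the mean CPM of the 3 Con A libraries for 33 complement genes (Cfd is off the scale), with 1 symbol per library and a line at 0. FMT-Con A 1 and FMT-Con A 3 lie close together, with medians over all 34 genes of -0.55 and -0.56, and FMT-Con A 2 lies above them in most genes, with a median of -0.09.

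Among 24 further complement genes, 21 passed the filter on low counts (C5ar2, Cd55b and Fcnb did not). In FMT-Con A against Con A, 1 rose and 3 fell, in FMT-Con A against WT 6 rose and 9 fell, and in Con A against WT 6 rose and 8 fell. Those called were 19%, 71.4% and 66.7% of the 21, near the 16.8%, 59% and 63.4% of all genes. Cpb2, a carboxypeptidase that trims C3a and C5a, was 655, 852 and 631 CPM in FMT-Con A, 841, 796 and 885 CPM in Con A, and 108, 124 and 141 CPM in WT. Its log2 fold change was 2.51 in FMT-Con A against WT (SE 0.18, edgeR adjusted p 3.64e-06) and 2.75 in Con A against WT (SE 0.18, edgeR adjusted p 1.47e-06). Cd93, once described as a C1q receptor, rose by 2.27 in FMT-Con A (edgeR adjusted p 0.000151) and 2.96 in Con A (edgeR adjusted p 2.18e-05) against WT. Itgb2, the beta chain that pairs with Itgam and Itgax, rose by 1.53 in FMT-Con A (edgeR adjusted p 5.44e-05) and 1.93 in Con A (edgeR adjusted p 9.27e-06) against WT.

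Colec11, a collectin of the lectin pathway, was 0.947, 1.09 and 0.687 CPM in FMT-Con A, 3.30, 2.04 and 2.03 CPM in Con A, and 14.1, 12.8 and 21.5 CPM in WT. The 3 groups did not overlap, and all 3 comparisons passed: -1.43 in FMT-Con A against Con A (SE 0.31, edgeR adjusted p 0.0164), -4.15 in FMT-Con A against WT (SE 0.31, edgeR adjusted p 5.14e-06) and -2.72 in Con A against WT (SE 0.29, edgeR adjusted p 2.71e-05). Its partner Colec10 was 3.12 to 3.32 CPM in FMT-Con A, 5.97 to 10.3 CPM in Con A and 6.60 to 12.0 CPM in WT, and fell by 1.25 on the log2 scale in FMT-Con A against Con A (edgeR adjusted p 0.0159). C1s2 fell by 1.05 in that comparison (edgeR adjusted p 0.0162). Susd4, a membrane inhibitor, fell by 2.20 in FMT-Con A (edgeR adjusted p 0.000572) and by 1.30 in Con A (edgeR adjusted p 0.00795) against WT, and Cd59b by 1.64 (edgeR adjusted p 0.00193) and by 1.28 (edgeR adjusted p 0.00637). C7, a terminal component, was 15.3, 1.76 and 14.7 CPM in FMT-Con A, 0.943, 1.89 and 2.40 CPM in Con A, and 0.916, 1.03 and 0.669 CPM in WT. As with Cfd, the high libraries were FMT-Con A 1 and FMT-Con A 3; C7 was at 2.59 in FMT-Con A against Con A (edgeR adjusted p 0.0294) and 3.61 in FMT-Con A against WT (edgeR adjusted p 0.00184).

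**Figure D4:**
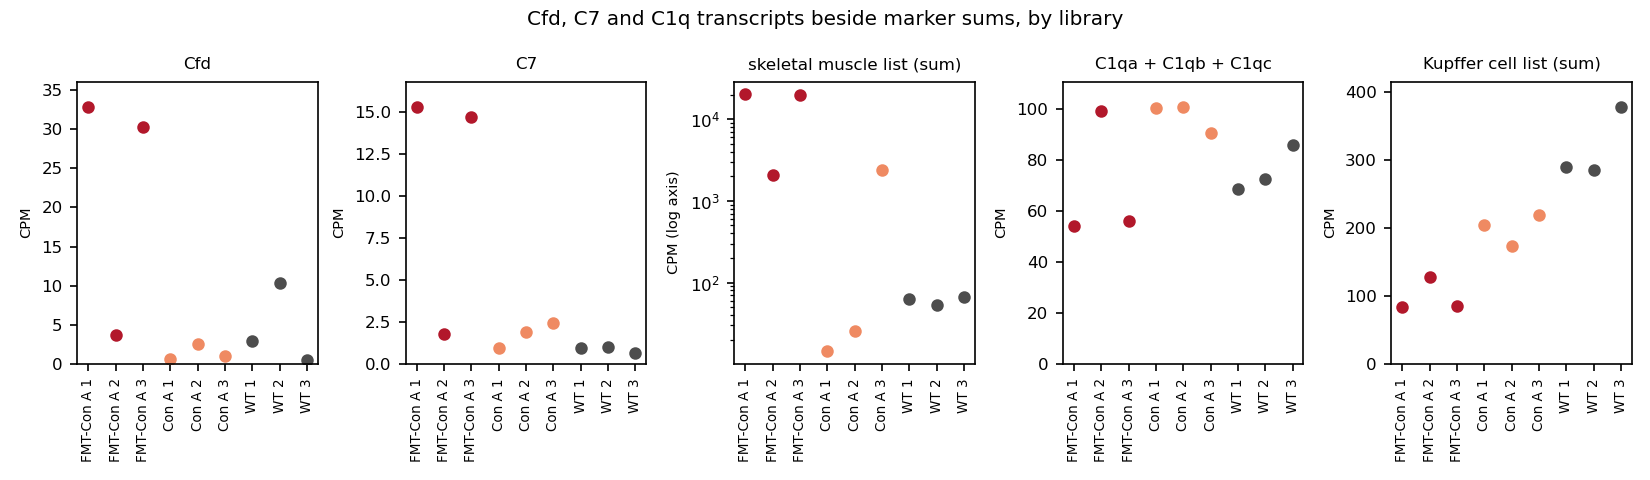
CPM by library of Cfd, C7 and the summed C1q genes (C1qa, C1qb and C1qc) beside the summed skeletal muscle and Kupffer cell genes, with 1 point per library in FMT-Con A, Con A and WT; the skeletal muscle panel has a log axis and the others start at 0. Cfd (32.8 and 30.3 CPM), C7 (15.3 and 14.7 CPM) and the muscle genes (20250 and 19990 CPM) are all highest in FMT-Con A 1 and FMT-Con A 3, where the C1q sum is lowest (54.0 and 56.1 CPM).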

How the data were processed

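The deposited files hold read counts per gene, 1 file per library, as whole numbers with no normalisation. They were made on GRCm38 (mm10) with HISAT2, featureCounts and CASAVA, per the submitters' processing notes; versions, annotation release, strand and multi-mapping settings are not given in the sources used here. Trizol extraction and selection of polyadenylated RNA preceded sequencing, per the labels' protocols. Symbols, positions and exon lengths came from GENCODE vM21 of GRCm38, which gave symbols to 52083 of 55359 Ensembl identifiers. Nothing beyond the numbering states that libraries of a group come from separate mice, so p-values cover the spread among libraries, which may be technical. By the chi-square measure given above, FMT-Con A 1 and FMT-Con A 3 were the closest pair of any group, at 2.71. Pairs within WT were at 3.57 to 5.98 and those within Con A at 9.51 to 16.5. Whether FMT-Con A 1 and FMT-Con A 3 come from separate mice cannot be told, and the tests count them as separate.

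The 9 libraries were fitted together in edgeR 4.0.16 (R 4.3.3; TMM; filterByExpr with minimum count 10 and minimum total 15; 6 residual degrees of freedom). The quasi-likelihood F test was two-sided, with Benjamini-Hochberg adjustment over 17704 genes. The SE was derived as the size of the log2 fold change divided by the root of F, and log2 fold changes use a prior count of 0.125. The fit was tested on simulated data. Alternatives were DESeq2 1.42.0, 3 other scalings, 2 other filters, only the groups compared, a replicate block, each library left out in turn, and FMT-Con A 1 and 3 left out together. All 34 members are named; of the other complement genes, the 3 with the largest absolute change among those called in each direction. The members and lists were chosen with earlier results of these data known.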

Additional observations from a re-analysis of the deposited data

How the results depend on the processing

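In Con A against WT, 12 of the 17 members that rose (C1ra, C4b, Cfb, C3, Cfi, C4bp, Serping1, Clu, Vtn, C5ar1, Itgam and Itgax) and 3 of the 4 that fell (Masp2, C8g and Cd59a) were called in all 17 alternatives. In FMT-Con A against WT it was 7 of 10 (Cfb, C3, Serping1, Clu, Vtn, C5ar1 and Itgam) and 2 of 9 (Masp2 and Cd59a) in all 18, and in FMT-Con A against Con A 0 of 7. With library totals alone, which moved the median of all genes by 0.19 in FMT-Con A against Con A, 2 members were higher there, and 8 were lower in Con A against WT (Fcna, Hc, C8a and C9 in addition). Over all genes that scaling called 2124 higher and 1122 lower in FMT-Con A against Con A, beside 1108 and 1873, and 4845 higher and 6457 lower in Con A against WT, beside 5749 and 5470. With only the groups compared in the fit, 2 members were lower in FMT-Con A against Con A, and 1156 genes in all were called, beside 2981. Without FMT-Con A 1 and FMT-Con A 3, which leaves 1 library assumed to vary like the other groups, those counts were 0 higher and 0 lower among members and 99 genes in all, and 2 members were lower in FMT-Con A against WT. Leaving out 1 library at a time gave 13 to 19 members higher and 3 to 6 lower in Con A against WT, 0 to 1 higher and 0 to 16 lower in FMT-Con A against Con A, and 7 to 12 higher and 6 to 14 lower in FMT-Con A against WT. All genes called in FMT-Con A against Con A then numbered 664 without FMT-Con A 1, 778 without FMT-Con A 3, 812 without Con A 1 and 1828 without WT 1.

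The values that changed direction had not passed the test; among them Cfd in FMT-Con A against WT was 2.29 with all libraries. With library totals alone C1qa was -0.07 and Masp1 -0.12 in Con A against WT, C8g 0.15 and Cd55 0.08 in FMT-Con A against Con A, and C1qc -0.01 in FMT-Con A against WT. C1qc was also -0.01 there with TMM without mitochondrial and muscle transcripts and -0.02 with the filter of 1 CPM in 3 libraries, where C1s1 was -0.01; C8g was 0.01 in FMT-Con A against Con A with only those groups. Without FMT-Con A 1 and FMT-Con A 3, values against Con A were 0.21 for C1qa, 0.15 for Fcna, 0.19 for Cfp, 0.06 for C6, 0.06 for C8a, 0.47 for C8g and 0.23 for C9, and against WT 0.33 for C1qa, 0.40 for C1qb, -0.25 for C1s1, 0.56 for Mbl2, -0.30 for Cfd, 0.01 for C6, 0.24 for C8b and -0.24 for Cd55. Leaving out 1 library gave -0.33 to 0.30 for C6 in Con A against WT, and -0.21 to 0.19 for Mbl1, -0.07 to 0.11 for Masp2, -0.46 to 0.07 for C3, -0.34 to 0.14 for C8g, -0.39 to 0.14 for Cd55, -0.01 to 0.29 for Itgam in FMT-Con A against Con A, and -0.46 to 0.05 for C1qb, -0.28 to 0.17 for C1qc, -0.03 to 0.14 for C1s1, -0.49 to 0.16 for Mbl2 in FMT-Con A against WT. The cause was not tested.

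Same-numbered libraries correlated at -0.216 to 0.344 in their deviations from the group means. Libraries of different number were not correlated beside them, so these values cannot tell whether the numbers pair libraries. The replicate block gave 16 higher and 5 lower members in Con A against WT, 1 higher and 5 lower in FMT-Con A against Con A, and 10 higher and 9 lower in FMT-Con A against WT, with C6 at 0.04 in Con A against WT and C1qc at -0.01 in FMT-Con A against WT. Under the block C1qc in Con A against WT (edgeR adjusted p 0.0573), C1s1 in FMT-Con A against Con A (0.0813) and C8a in FMT-Con A against WT (0.0565) did not pass, while C9 in Con A against WT (0.0429) and C6 in FMT-Con A against WT (-0.72, 0.0258) passed as lower. Depth limits low genes such as Itgam, Itgax and C5ar1, which were at 0.366 to 1.59 CPM in WT.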
